A study of Mus musculus with 8 samples.

Results

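The 10 cytokine genes of helper T cells are described here: Il21, Il4, Ifng, Il2, Tnf, Lta, Il10, Il5, Il13 and Il17a. They were taken by name, and the array annotation mapped 1 probe set to each, so they make up 10 of 12393 named genes and 10 of 22626 non-control probe sets. Lymph node cells of the inbred strain B10.BR were sorted by flow cytometry, and their RNA was measured on Affymetrix mouse arrays. The groups were naive mice (3 arrays), immunized mice at day 7 (3 arrays) and immunized mice at day 28 (2 arrays). The labels give no age, immunogen, adjuvant or surface markers of the sorted cells, nor whether each array had its own animal. The p-values therefore cover only the variation among the arrays, which may be technical.

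Helper T cells act on other cells through secreted cytokines, and each kind of helper cell is known by the cytokines it makes. Il21 and Il4 are the cytokines by which follicular helper T cells support germinal centre B cells and antibody class switching. Ifng is the cytokine of Th1 cells, Il4, Il5 and Il13 are those of Th2 cells, Il17a is that of Th17 cells, and Il10 restrains responses. Il2 drives T cell growth, and Tnf and Lta are related inflammatory and lymphoid-tissue cytokines. Cytokine genes are silent in naive helper cells, and most are transcribed in bursts after the T cell receptor is triggered, through the factors NFAT and AP-1.

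Each value is a ratio as deposited. For Tnf and Il13 it was read as a ratio to the gene's own median over the 8 arrays, and for the other 8 genes as a ratio to a common floor, since their medians lie below 1. Because this scaling was inferred and differs between genes, levels of different genes are not compared. A further 7471 probe sets stayed below 1 on every array, and the middle 90% of their values ran from 0.457 to 0.846, which is called the dim range here. A probe set was tested if it reached 1 on at least 2 arrays, which 13042 did, among them 8 of the 10 cytokines; Il10 and Il5 did not. Naive replicate 1 stood apart from the other naive arrays: its 14 spike-in probe sets, for bacterial transcripts added as controls, had a median log2 ratio of -1.29, near the day 7 arrays (-1.88 to -1.12), against 0.64 and 1.53 at day 28 and 0.75 and 0.90 for the other naive replicates. Day 7 values set against naive replicate 1 alone are given for Il21, Il4, Ifng, Il2, Tnf and Il17a.

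Day 7 arrays carried far higher Il21, Il4 and Ifng signals than naive arrays, between 15.5-fold and 20.6-fold on average, and the signals were back among or near the naive values at day 28. Il21 and Il4 rose past the threshold in limma, Ifng did not. Naive values lay in the dim range on 2 of 3 arrays for Il21 and Ifng and on 3 of 3 for Il4, so these folds are measured against signals near background and may understate the change in RNA. The mean difference between day 7 and naive arrays was under 2-fold for the other 7 cytokines. Of the 10 genes, 2 were called higher at day 7, where limma called 1.06% of all tested probe sets higher. Outside day 7, no array reached a ratio of 1 for Il21 or Il4 and 1 array did for Ifng, so these genes entered the test only through day 7 and the count called is a description. Groups did not overlap, day 7 above naive, for 5 genes (Il21, Il4, Ifng, Tnf and Lta), as for 12.6% of all 22626 probe sets. The median log2 difference was 0.57 over the 10 genes and 0.11 over all probe sets tested.

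**Figure D1:**
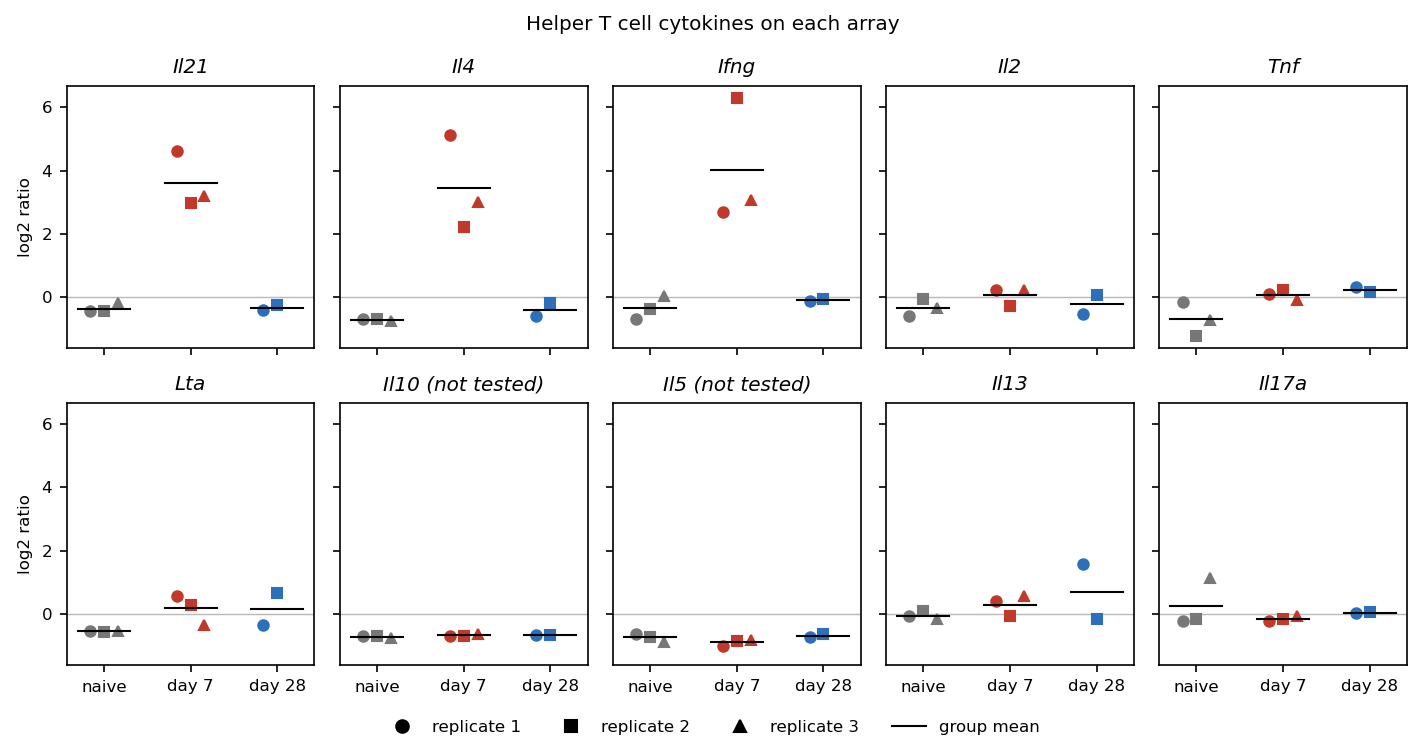
Log2 ratio (vertical axis) of each cytokine gene on every array, by group (horizontal axis, in order of time). Points are arrays, with the replicate shown by its shape, and bars are group means; on the day 7 arrays Il21 lies between 2.97 and 4.62, Il4 between 2.21 and 5.13 and Ifng between 2.70 and 6.30, while Il10 and Il5 lie below 0 on every array.

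Il21 (gene ID 60505, chromosome 3) is made chiefly by follicular helper and Th17 cells and drives germinal centre B cells and plasma cell formation. Its ratios were 0.737, 0.734 and 0.879 in naive mice, 24.7, 7.81 and 9.20 on the day 7 arrays, and 0.745 and 0.838 on those of day 28. Every day 7 array stood above every other array, and the naive and day 28 values overlapped. Naive replicate 3 was just above the dim range and the other 4 arrays outside day 7 were in it. The rise was 15.5-fold, a log2 difference of 3.95 ± 0.45 (SE, 3 arrays each, limma adjusted p = 0.0102; 95% interval 2.92 to 4.99). Against naive replicate 1 alone it was 4.04. The call was lost without naive replicate 2 (adjusted p = 0.0688), naive replicate 3 (0.0558) or day 7 replicate 3 (0.0572), and once the spike-in split was a covariate (0.112), at log2 differences of 3.91 to 4.15.

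The 250 bases before the transcription start of Il21, Il4 and Ifng are shown because these genes were high on the same arrays. They come from RefSeq on GRCm38.p6. Il21 is at chr3:37232637-37232886, minus strand, and Ifng at chr10:118440796-118441045, plus strand. Il4 is at chr11:53618666-53618915, minus strand, the upstream of 2 starts listed. The windows run 5′ to 3′ along the gene and have in capitals each GGAAA or its reverse complement TTTCC, the core that NFAT binds.
Il21: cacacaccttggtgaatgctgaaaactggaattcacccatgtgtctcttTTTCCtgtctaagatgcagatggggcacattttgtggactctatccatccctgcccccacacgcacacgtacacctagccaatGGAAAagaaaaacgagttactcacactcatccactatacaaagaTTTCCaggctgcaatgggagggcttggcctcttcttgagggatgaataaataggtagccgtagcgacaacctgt
Il4: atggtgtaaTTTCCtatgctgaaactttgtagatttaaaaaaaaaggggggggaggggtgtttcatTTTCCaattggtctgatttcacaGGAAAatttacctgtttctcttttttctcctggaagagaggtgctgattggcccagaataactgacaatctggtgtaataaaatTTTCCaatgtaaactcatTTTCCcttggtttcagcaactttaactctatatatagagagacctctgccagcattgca
Ifng: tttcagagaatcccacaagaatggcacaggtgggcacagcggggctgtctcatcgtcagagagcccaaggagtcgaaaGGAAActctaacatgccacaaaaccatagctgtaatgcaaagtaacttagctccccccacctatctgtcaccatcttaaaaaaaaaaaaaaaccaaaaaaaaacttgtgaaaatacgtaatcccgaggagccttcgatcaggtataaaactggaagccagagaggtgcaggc
Both strands were searched. Il4 had 5 such cores at the start shown and 0 at its other start, and 0.39% of 32851 promoter windows of this length have at least 5. Il21 had 3 (6.39% of windows have at least 3) and Ifng had 1 (55.6% have at least 1). Among the other members, Il13 had 4 and Tnf 3. Any link between these cores and the day 7 values was not tested. The AP-1 site TGANTCA was found in none of the 3 windows shown, and in 6.75% of all windows. The TATA sequence TATAA, on either strand, occurred in 22.8% of windows. Ifng has 1 match, starting 30 bases before the start, and the Il21 and Il4 windows have no match to this exact string. The Il4 window holds TATATATA near its end, which the search did not count, so no match does not mean no TATA sequence.

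Il4 (gene ID 16189, chromosome 11) directs class switching to IgG1 and IgE in mice. Its ratios were 0.617, 0.621 and 0.589 in naive mice, 34.9, 4.63 and 8.05 on the day 7 arrays, and 0.656 and 0.871 on those of day 28. The naive arrays lay close together in the dim range, every day 7 array was above them, and both day 28 arrays lay slightly above the highest naive one. The rise at day 7 was 17.9-fold (log2 difference 4.16 ± 0.67, SE, 3 arrays each, limma adjusted p = 0.0396; 95% interval 2.60 to 5.73). Against naive replicate 1 alone the log2 difference was 4.15. This call was the less stable of the pair. Adjusted over all 22626 probe sets without the filter, p was 0.116, and it was 0.0775 with either day 28 array left out, 0.174 and 0.153 without naive replicates 2 and 3, 0.169 without day 7 replicate 3 and 0.262 with the spike-in term.

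Ifng (gene ID 15978, chromosome 10) activates macrophages and directs switching to IgG2 isotypes. Its ratios were 0.620, 0.777 and 1.02 in naive mice, 6.51, 78.9 and 8.41 on the day 7 arrays, and 0.919 and 0.954 on those of day 28. The lowest day 7 array exceeded the highest of the others, and the naive range took in both day 28 arrays. The log2 difference at day 7 was 4.37 ± 0.87 (SE, 3 arrays each; 95% interval 2.36 to 6.38), and it did not pass in limma (adjusted p = 0.0703). Day 7 replicate 2 carried the highest ratio: without it the log2 difference was 3.23 and passed (adjusted p = 0.0226). It also passed without naive replicate 1 (4.19, adjusted p = 0.0374) and after quantile normalization (4.07, adjusted p = 0.0471). Against naive replicate 1 alone it was 4.72.

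**Figure D2:**
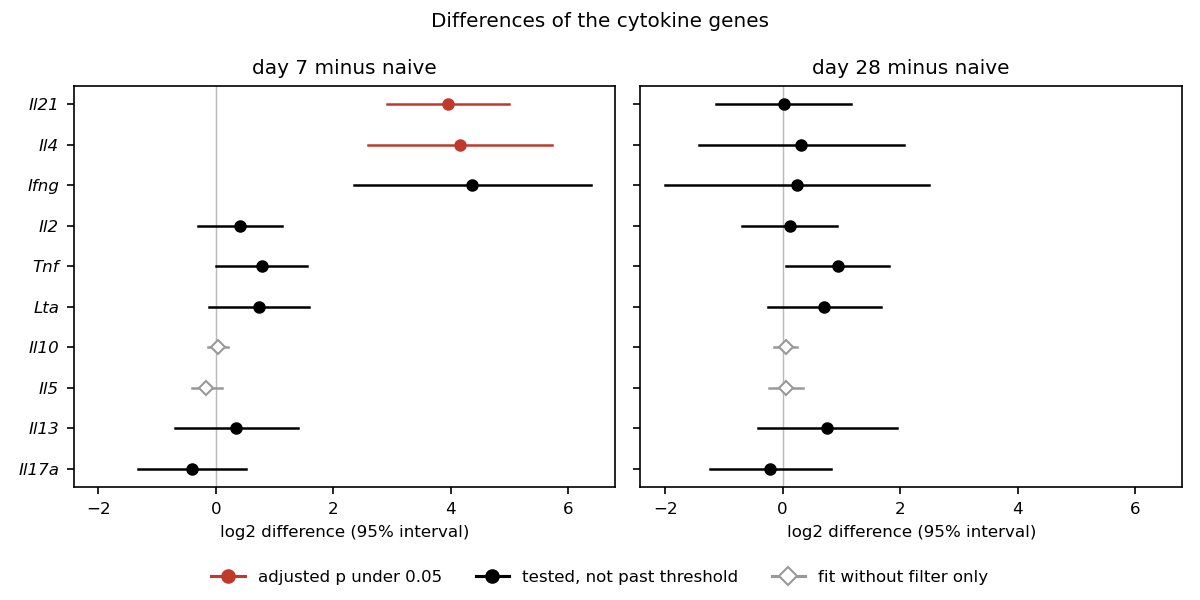
Log2 difference (horizontal axis) of each cytokine gene at day 7 and at day 28 against naive arrays, with 95% intervals from limma. The day 7 intervals of Il21, Il4 and Ifng lie above 2; open diamonds mark Il10 and Il5, fitted without the filter on low values.

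The day 7 arrays differed among themselves in which cytokine was high. Il4 and Il21 were highest on replicate 1 and lowest on replicate 2, whereas Ifng was highest on replicate 2 and lowest on replicate 1. Between the highest and lowest day 7 array the ratio varied 12.1-fold for Ifng, 7.55-fold for Il4 and 3.16-fold for Il21. Within an array, the log2 ratio of Il4 minus that of Ifng was 2.42, -4.09 and -0.06 on day 7 replicates 1, 2 and 3, against -0.79 to -0.01 on naive arrays. That of Il21 minus Ifng was 1.92, -3.34 and 0.13, and that of Il21 minus Il4 was -0.50, 0.76 and 0.19. These differences are read across arrays, since a single one does not compare levels of both genes.

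Lineage regulators also differed among the day 7 arrays. Tbx21, which encodes T-bet, the Th1 factor that acts on Ifng, had log2 ratios of 0.26, 3.10 and 2.41 on day 7 replicates 1, 2 and 3. Its day 7 mean was 1.92, against -0.36 on naive arrays (log2 difference 2.28 ± 0.69, adjusted p = 0.179), and it did not pass. Gata3, the Th2 factor, had 1.77, -0.36 and 0.69 (log2 difference 1.09 ± 0.57, adjusted p = 0.395). Bcl6, the follicular helper factor, had 3.10, 1.91 and 2.43 and rose (3.35 ± 0.51, adjusted p = 0.0347). A second Bcl6 probe set, too dim to be tested, had log2 ratios of -0.56 to -0.52 on 2 of the day 7 arrays and -0.92 on the other, against -0.86 to -0.73 on naive arrays. Of 14 follicular helper genes tested, 10 were highest on replicate 1, 1 on replicate 2 and 3 on replicate 3, and their mean log2 ratio was 1.88, 0.34 and 1.28. Of 18 helper lineage regulators, Bcl6 among them, 10 were highest on replicate 1, 4 on replicate 2 and 4 on replicate 3. The mean of 10 T cell markers was also highest on replicate 1 and lowest on replicate 2 (1.2, -1.08 and -0.08). This order was therefore not particular to follicular helper genes. Among the follicular helper genes, the receptors Pdcd1 (3.60, 0.76 and 2.33) and Cxcr5 (2.38, -0.91 and 1.63) were highest on replicate 1. Cd200 (1.09, 1.3 and 0.68) was highest on replicate 2 and Icos (2.65, 1.93 and 2.71) on replicate 3. A second tested Icos probe set was instead highest on replicate 1 (2.87, -0.59 and 1.28). Nkg7, a gene of cytotoxic granules, was highest on replicate 2 (0.21, 1.72 and 0.45). So were Klrd1 and Klra1, but Gzma, Gzmb and Cd8a were highest on replicate 3 and Cd8b1 on replicate 1. The mean log2 ratio of the 7 tested CD8 T cell and NK cell markers was -0.2, 0.32 and 0.14. Nkg7 was the 1 of 7 tested CD8 T cell and NK cell markers called higher at day 7 (log2 difference 4.05 ± 0.47, adjusted p = 0.0107), and its part in the Ifng values was not tested. Cxcr5 and Cd200 were named after their values were seen.

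The T cell genes Cd3e and Cd4 were measured on all arrays, but ratios show no absolute level by which to check the identity of the sorted cells. Cd3e had a log2 difference of -0.04 ± 1.21 at day 7 (adjusted p = 0.992) and Cd4 of 0.30 ± 1.02 (adjusted p = 0.9). Other cell type markers also differed between these arrays. The mean log2 ratio of 10 T cell markers was 1.2, -1.08 and -0.08 on day 7 replicates 1, 2 and 3, that of 6 monocyte and macrophage markers was -0.15, 0.69 and 0.50, and that of 4 neutrophil markers was -0.46, 0.55 and 1.65. Their part in the split between Il4 and Ifng was not tested. In RNA from sorted populations, more cells of a type and more RNA per cell cannot be told apart.

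**Figure D3:**
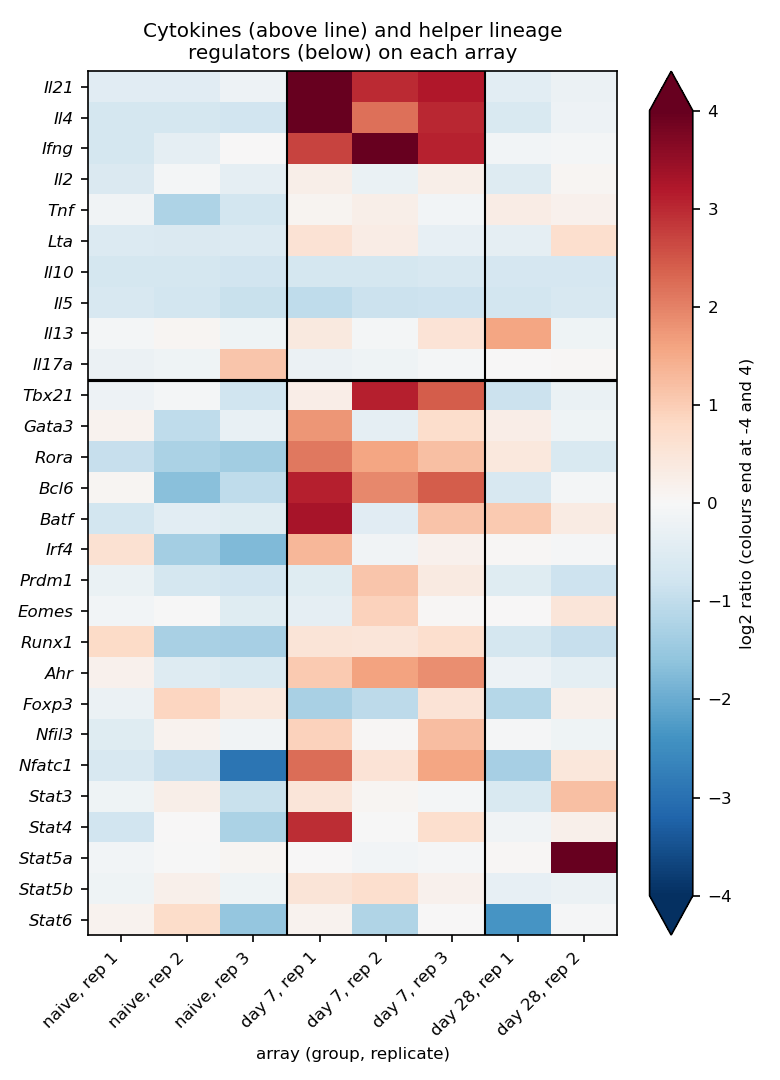
Log2 ratio (colour) of the 10 cytokine genes and of 18 helper lineage regulators (rows) on each array (columns, grouped by time). On day 7 replicates 1, 2 and 3, Ifng is at 2.7, 6.30 and 3.07 and Tbx21 at 0.26, 3.10 and 2.41. In the same order, Gata3 is at 1.77, -0.36 and 0.69, Il4 at 5.13, 2.21 and 3.01 and Il21 at 4.62, 2.97 and 3.2.

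Il2, the T cell growth factor, showed no such rise. Its ratios were 0.664, 0.950 and 0.782 in naive mice, 1.18, 0.832 and 1.19 on the day 7 arrays, and 0.696 and 1.05 on those of day 28, and the groups overlapped. The log2 difference was 0.41 ± 0.31 at day 7 (limma adjusted p = 0.535), with a 95% interval of -0.31 to 1.13. A rise in signal as large as that of Il21 lies outside this interval. Against naive replicate 1 alone the log2 difference was 0.66. Il2 lay inside the dim range on 4 arrays and above it on 4. The interval therefore covers the signal only, which may understate a change in Il2 RNA.

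Tnf and Lta, neighbouring genes of the same ligand family, were somewhat higher in both immunized groups. Tnf had ratios of 0.907, 0.423 and 0.606 in naive mice, 1.07, 1.18 and 0.930 on the day 7 arrays, and 1.24 and 1.12 on those of day 28. Every immunized array was above every naive one, the nearest pair being 0.930 and 0.907. The log2 difference was 0.78 ± 0.34 at day 7 (limma adjusted p = 0.323) and 0.94 ± 0.38 at day 28 (adjusted p = 0.736), neither past the threshold. Naive replicate 1 was the highest naive array for Tnf, and against it alone the day 7 difference was 0.22. Lta had 0.685, 0.665 and 0.682 in naive mice, 1.49, 1.22 and 0.791 on the day 7 arrays, and 0.783 and 1.58 on those of day 28. Its naive values were tight and all lower than the immunized ones, which spread widely, and its log2 differences were 0.74 ± 0.37 at day 7 (adjusted p = 0.38) and 0.71 ± 0.41 at day 28 (adjusted p = 0.934).

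The other Th2 cytokines, Il13 and Il5, were not called in any comparison. Il13, a cytokine of allergic and anti-worm responses, had ratios of 0.944, 1.06 and 0.884 in naive mice, 1.31, 0.945 and 1.47 on the day 7 arrays, and 2.97 and 0.894 on those of day 28. Day 28 replicate 1 stood above all others and day 28 replicate 2 lay within the naive range, and the day 28 log2 difference of 0.76 ± 0.51 (limma adjusted p = 0.979) turned to -0.10 without day 28 replicate 1. At day 7 Il13 had a log2 difference of 0.35 ± 0.45 (adjusted p = 0.72; 95% interval -0.70 to 1.40). Il5, the eosinophil growth factor, ran from 0.542 to 0.642 on naive arrays, 0.492 to 0.562 at day 7 and 0.597 to 0.645 at day 28, inside the dim range on all 8 arrays.

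Il10 was flatter still, from 0.591 to 0.618 in naive mice, from 0.618 to 0.638 at day 7 and from 0.626 to 0.634 at day 28. All 8 values were in the dim range, where a difference in RNA may not show, so these arrays do not tell whether Il10 or Il5 changed. Il17a had ratios of 0.844, 0.895 and 2.18 in naive mice, 0.856, 0.885 and 0.943 on the day 7 arrays, and 1.0 and 1.03 on those of day 28. Naive replicate 3 alone stood out. The log2 difference at day 7 was -0.40 ± 0.40 (limma adjusted p = 0.637), and 0.04 without that array. Against naive replicate 1 alone it was 0.08.

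**Figure D4:**
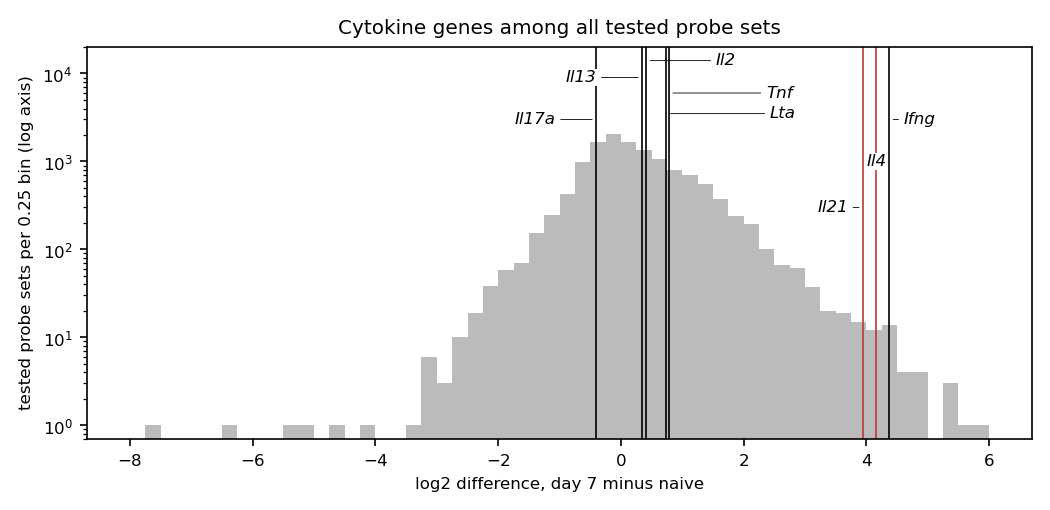
Number of tested probe sets (vertical log axis, bins of 0.25) by log2 difference of day 7 minus naive arrays (horizontal axis), with lines at the 8 tested cytokine genes. Il21 (3.95), Il4 (4.16) and Ifng (4.37) lie in the far upper tail, and Il2, Tnf, Lta, Il13 and Il17a between -0.40 and 0.78.

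At day 28 no cytokine passed against naive arrays. Limma called 0 of the 8 tested genes higher or lower, where it called 0.268% of tested probe sets higher and 0.0537% lower. Tnf was past an unadjusted p of 0.05 (unadjusted p = 0.0384). The log2 difference was 0.02 ± 0.50 for Il21 (2 arrays against 3; adjusted p = 0.998; 95% interval -1.14 to 1.17), 0.31 ± 0.75 for Il4 and 0.25 ± 0.97 for Ifng. The 95% interval for Ifng was the widest of these, from -2.0 to 2.5. Groups did not overlap, day 28 above naive, for Il4, Tnf, Lta and Il10, as for 6.59% of all probe sets, and day 28 below naive for 0 of the 10, against 11.8%.

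Between day 28 and day 7, which share the day 7 arrays with the comparison above, Il21 fell by 3.94 on the log2 scale (± 0.50, SE, 2 arrays against 3, limma adjusted p = 0.0162). It was the 1 cytokine called lower, where limma called 0.882% of tested probe sets lower, and 0 were called higher, against 0.422%. Because Il21 entered the test only through the day 7 arrays, this count is a description too. The log2 difference of Il4 was -3.85 ± 0.75 (adjusted p = 0.0599), that of Ifng -4.12 ± 0.97 (adjusted p = 0.098). Groups did not overlap for these 3 genes, day 28 below day 7, as for 29.7% of all probe sets, and for Il17a and Il5, day 28 above day 7, as for 13.5%. The Il21 call was lost without day 28 replicate 1 (adjusted p = 0.111), day 28 replicate 2 (0.0761) or day 7 replicate 3 (0.0708), and with the spike-in term (0.191). All day 7 arrays had low spike-in values and both day 28 arrays high ones, so the spike-in split separates these groups completely. With that term their difference is estimated only by way of the naive arrays, of which 1 was low. Il4 passed without naive replicate 1 (0.037) or day 7 replicate 1 (0.0304), and Ifng without day 7 replicate 2 (0.0413).

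Markers of other cells were also higher on the day 28 arrays. The mean log2 ratio of 10 B cell markers was 3.78 and 3.24 at day 28, against -0.78 to -0.42 on naive arrays and -0.32 to -0.20 at day 7. Of the 10, 7 rose at day 28 against naive, where limma called 0.383% of genes higher and 0.0383% lower; they include Cd79b (6.09 ± 0.43, adjusted p = 0.00428) and Ms4a1 (6.74 ± 0.64, adjusted p = 0.00936). Of 7 tested CD8 T cell and NK cell markers, 1 was called higher, Cd8b1, a chain of the CD8 coreceptor, with a log2 difference of 3.70 ± 0.35 (adjusted p = 0.00936). The mean log2 ratio of 6 monocyte and macrophage markers, cells that also make Tnf, was 1.57 and 0.48 at day 28, against -0.96 to -0.26 on naive arrays; limma called 0 of the 6, and 2 passed an unadjusted p of 0.05 upward. The part of these cells in the day 28 cytokine values, including those of Tnf and of Lta, which B cells also make, was not tested.

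Receptors of these cytokines, inhibitors of their signals and targets of interferon gamma were not called at day 7, where limma called 1.2% of all genes higher and 0.115% lower, so 0 calls in lists of this size says little about them. Of 19 receptor genes, 13 were tested, and limma called 0 in any of the 3 comparisons (at day 7 against naive, 0 were higher and 1 lower at an unadjusted p under 0.05; median log2 difference -0.40, against 0.16 over all 7825 genes). Il21r, the receptor of Il21, had a log2 difference of 0.01 ± 0.44 at day 7 (95% interval -1.01 to 1.03), and Il2ra, the high-affinity chain of the Il2 receptor, -0.25 ± 0.50. Of 10 inhibitors of cytokine signalling tested, among them the Socs genes, 0 were called in limma at day 7, and 0 were past an unadjusted p of 0.05 (median -0.30). Of 13 target genes of interferon gamma tested, 0 were called at day 7 (0 higher and 2 lower at an unadjusted p under 0.05; median -0.03). Their mean log2 ratio was -0.34 on day 7 replicate 2, where Ifng was highest, -0.01 and 0.07 on the other day 7 arrays, and -0.68 to 0.62 on naive arrays.

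Regulators and other ligands of T cells moved in part. At day 7 limma called 1.2% of all genes higher, and the median log2 difference over all genes was 0.16. The lists here were chosen with earlier results of these data known, so their counts are a description. Of 18 helper lineage regulators tested, 2 rose at day 7, Bcl6 and Rora, a factor that supports Th17 cells (2.82 ± 0.38, adjusted p = 0.0202); 0 fell, and the median log2 difference was 1.13. Of 11 other T cell cytokines and ligands tested, 1 rose, Tnfsf11, which encodes RANKL, a driver of osteoclast and lymph node development. Tnfsf11 had log2 ratios of -0.04, -0.46 and 0.04 in naive mice, 1.94, 2.77 and 2.69 on the day 7 arrays, and -0.35 and -0.25 on those of day 28. It was higher on each day 7 array and back in the naive range at day 28. It rose by 2.62 ± 0.32 at day 7 (adjusted p = 0.0138). It was called lower at day 28 than at day 7 (log2 difference -2.77, adjusted p = 0.0177), where limma called 1.01% of genes lower. A second Tnfsf11 probe set, too dim to be tested, had log2 ratios of -0.88 to -0.83 on the day 7 arrays, against -0.89 to -0.55 on naive arrays. Cd40lg, the ligand by which helper cells activate B cells, had 1 probe set, with log2 ratios of -0.97 to -0.67 on naive arrays, -0.74 to -0.67 at day 7 and -0.82 to -0.59 at day 28, too dim to be tested. Of 14 follicular helper genes tested, 5 rose at day 7 (median 2.05): Bcl6, Pdcd1, Pou2af1, Icos and Cxcr5. For Icos, the costimulator of these cells, the log2 difference was 3.87 ± 0.66 (adjusted p = 0.0431). Its second tested probe set had log2 ratios of 2.87, -0.59 and 1.28 on the day 7 arrays, against -1.79 to -1.24 on naive arrays.

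Of 9 other genes near the cytokines on the chromosome that were tested, 0 were called at day 7 and 1 was lower at an unadjusted p under 0.05, against 1.2% of all genes called higher and 0.115% lower. The genes on either side of Ifng and of Il17a were not tested. On RefSeq's map Il21 and Il2 are neighbours on chromosome 3, and Il2 was not called. Il4 lies between Kif3a and Il13 on chromosome 11, with Rad50 between Il13 and Il5. Kif3a differed by 0.34 on the log2 scale at day 7 (limma adjusted p = 0.651), Rad50 by 0.40 (adjusted p = 0.825). Irf1, an interferon-induced transcription factor on the other side of Il5, had the largest difference of the 9, -1.16 (adjusted p = 0.278), and was named after its value was seen. Tnf lies between Ltb, its relative, and Lta on chromosome 17, and Ltb had -0.02 (adjusted p = 0.983).

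The genes with profiles most like that of Il21 were sought among the tested genes, by the root mean square difference over the 8 arrays after centring each gene on its own mean. They were Egln3, an oxygen-sensing hydroxylase (0.28 on the log2 scale), Padi4, an enzyme that converts arginine to citrulline (0.32), and Il4 itself (0.36). For Il4 they were Il21 (0.36), Padi4 (0.41) and Egln3 (0.49). Ifng lay at 1.35 from Il21 and 1.66 from Il4. Egln3 had log2 ratios of -0.81, -0.52 and -0.75 in naive mice, 3.76, 2.37 and 2.56 on the day 7 arrays, and -0.42 and -0.49 on those of day 28. Padi4 had 4.20, 2.15 and 2.63 at day 7, against -0.86 to -0.13 on naive arrays. Both were chosen for this likeness, so their values are a description.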

How the data were processed

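Values are linear ratios deposited by the authors. GCRMA is named, without a version, per the submitters' processing notes. No source gives the scaling. It was inferred from medians over the 8 arrays, which equal 1 (within 0.0015) for 47.9% of probe sets and exceed it for none. The number of arrays limits the precision. Log2 ratios were fitted with limma 3.58.1 in R 4.3.3, with 1 mean per group over 8 arrays and empirical Bayes moderation, and two-sided p-values were adjusted by Benjamini-Hochberg over the 13042 probe sets that reached a ratio of 1 on 2 or more arrays. Calls needed an adjusted p below 0.05. The code of the fit was checked on simulated data with independent, normal variation. Such data lack the floor and spike-in split of these ratios, so power on these arrays was not measured. Symbols came from the platform annotation (20380 probe sets with 1 symbol, 691 several, 1555 none), updated by gene ID through RefSeq (20351 matched). Other genes are shown by the tested probe set of highest median, then largest SD. This can enlarge folds.

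The members and lists were chosen with earlier results of these data known. Named were all members, up to 4 genes per list and comparison with the smallest adjusted p among those called, fixed regulators and markers, and the 3 nearest profiles of each called member. Lists covered receptors, regulators, other T cell cytokines and ligands, signal inhibitors, interferon gamma targets, locus neighbours, follicular helper genes, and markers of T, CD8 and NK, B, monocyte and macrophage, dendritic, mast, basophil and eosinophil, and neutrophil cells. Of the 9 locus neighbours tested, 0 were called at day 7 (0 higher and 1 lower at an unadjusted p under 0.05). Likewise 0 of 2 dendritic cell and 0 of 5 mast cell, basophil and eosinophil markers were called (0 past an unadjusted p of 0.05 in each). Alternatives changed the filter, normalization, variance model, samples and covariates.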

Additional observations from a re-analysis of the deposited data

How the results depend on the processing

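The alternatives were no filter, the stricter filter (a median ratio of 1), median centring, quantile normalization, a fit of only the 2 groups compared, trended and robust variance, a replicate block, a spike-in term and leaving out each array. Il21, Il4 and Ifng were higher at day 7 than in naive arrays, and lower at day 28 than at day 7, under every alternative that kept them; the stricter filter removed them. The day 7 log2 difference ran from 3.44 to 4.27 for Il21, 3.33 to 4.78 for Il4 and 3.23 to 5.03 for Ifng. Il21 passed in 10, Il4 in 5 and Ifng in 3 of 15 alternatives. These are not 15 separate checks, since leaving out either day 28 array gave the same day 7 result as fitting only the 2 groups compared. Cytokines called at day 7 against naive, 2 here, numbered 1 with no filter, trended and robust variance or only the 2 groups compared, 0 with the stricter filter, the replicate block or the spike-in term, and 0 to 3 with 1 array left out. For day 28 against naive, 0 were called throughout. For day 28 against day 7, 1 here, they numbered 2 with quantile normalization, 0 with the stricter filter, the replicate block or the spike-in term, and 0 to 2 with 1 array left out. The cause was not tested, except that the stricter filter drops these probe sets and the smaller fits have fewer arrays. The spike-in split also separates all day 28 arrays from all day 7 arrays.

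All probe sets called at day 7 against naive, 152 here, numbered 94 with no filter, 76 with the stricter filter, 54 with trended and robust variance, 68 with only the 2 groups compared, 16 with the replicate block, 14 with the spike-in term, and 17 to 1727 with 1 array left out. The highest number was without naive replicate 1. For day 28 against naive, 42 here, they numbered 26 with the stricter filter, 19 with trended and robust variance, 0 with only the 2 groups compared, 9 with the replicate block, and 2 to 57 with 1 array left out. The count for day 28 against day 7, 170 here, was 62 with the stricter filter, 52 with trended and robust variance, 591 with only the 2 groups compared, 15 with the replicate block, 0 with the spike-in term, and 25 to 810 with 1 array left out.

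Signs changed only where a cytokine was not called in the comparison itself. At day 7 against naive, Il17a had 0.08 with the spike-in term and -0.64 to 0.04 with 1 array left out. At day 28 against naive, Il21 had -0.04 with the replicate block, -0.02 with the spike-in term and -0.07 to 0.10 with 1 array left out. Il2 had -0.01 with the spike-in term and -0.18 to 0.42 with 1 array left out, Il13 had -0.10 to 1.63, and Il17a had 0.03 with the replicate block and -0.46 to 0.23. At day 28 against day 7, Lta had 0.29 with quantile normalization, 0.09 with median centring, 0.001 with the spike-in term and -0.53 to 0.48 with 1 array left out. Il17a had -0.54 with the spike-in term, Il2 had -0.59 to 0.004 and Il13 had -0.45 to 1.28.

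The replicate numbers are not known to pair the arrays: deviations from the group means correlated at -0.36 to 0.17 between same-numbered arrays. With the replicate block the Il21 difference at day 7 was 3.95 (adjusted p = 0.0681) and that of Il4 4.16 (adjusted p = 0.104). Leaving out a day 28 array leaves 1, which is assumed to vary like the other groups. Low signal limits Il10 and Il5, which stayed in the dim range.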
